A study of Mus musculus with 37 samples.

Results

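The genes described had a low ratio of RNA level in Nfya knockdown to control in both pairs of pools of mouse 2-cell embryos. A gene was taken when both control libraries held at least 3 FPKM (fragments per kilobase of transcript, scaled to the depth of the library) and when the knockdown library was at most 0.5 times the control library of the same number, for number 1 and for number 2. Gene families such as Zfp, Slc, ribosomal protein, histone and small nucleolar RNA genes were left out by symbol. The single genes Nfya, Hes1, Elf3, Calr and Hsp90b1 were left out in the same way. These conditions held for 37 of 23235 genes in the table. The values that chose the genes come from the same 4 libraries that are described, so every difference between knockdown and control below is a description with no test. The genes are called low-ratio genes here.

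The embryos came from in vitro fertilization of BDF1 oocytes with BDF1 sperm, by the strain labels. The control group held 2 RNA libraries of 2-cell embryos given a control siRNA (siControl), from 10 and 16 embryos. The knockdown group (Nfya-KD) held 2 libraries, one labelled siNfya-1 from 10 embryos and one labelled siNfya-2 from 13, and all 4 were collected 30 h after fertilization. A single library of 20 1-cell embryos, collected at 12 h and not used in choosing the genes, gives the level before that stage. Each library is a pool of whole embryos and the labels do not say whether pools came from separate mothers, so the spread between 2 libraries may be technical in part. In a pool, fewer cells with a transcript and less transcript per cell cannot be told apart.

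NF-Y is a transcription factor of 3 subunits that binds the sequence CCAAT, a common element of promoters. Nfya encodes the subunit that reads the sequence, while Nfyb and Nfyc encode histone-fold partners that bend the DNA beside it. The 2-cell stage is when the mouse embryo first transcribes its own genome at scale and clears much of the RNA stored in the egg, so a promoter factor can be studied there on genes that are being switched on.

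For Nfya the siControl libraries gave 10.3 and 15.5 FPKM and the knockdown libraries 3.28 and 4.48 FPKM, which are ratios of 0.319 and 0.288. For Nfyb the siControl libraries gave 13.0 and 38.8 FPKM and the knockdown libraries 52.9 and 127 FPKM, a log2 difference of 1.81 (SE 0.71, limma). Nfyc differed by 0.29 on the log2 scale (SE 0.43, limma). Relative read depth, read from the smallest steps of the values, was 0.911 for siControl 2, 1.02 for Nfya-KD 1, 0.755 for Nfya-KD 2 and 0.750 for the 1-cell library, with siControl 1 set to 1. Absolute depth was not known. The libraries numbered 1 had summed FPKM of 243441 and 260569, and those numbered 2 had 457684 and 449820, and each ratio compares libraries of the same number. Markers of the 2-cell stage summed to between 1427 and 4417 FPKM in the 4 libraries and to 366 FPKM at the 1-cell stage. Most of the 1-cell sum came from Sp110 (192 FPKM) and Arg2 (159 FPKM), and Arg2 was at 58.9 and 181 FPKM in siControl. Of 14 cumulus and granulosa markers 3 reached 1 FPKM in any 2-cell library, and their sum lay between 10.3 and 13.4 FPKM in each. Of 8 sperm and spermatid markers 3 reached it, with sums from 4.02 to 12.0 FPKM, and the part of such cells in any value was not tested.

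The promoters of the low-ratio genes are shown first, because the motif that NF-Y reads could be counted in them without use of any RNA value. RefSeq promoter windows (GRCm38.p6) run from 250 bases before a transcript start to 50 bases after it and were available here for 28 of the 37 genes. The bases before the start are printed 5′ to 3′ on the strand of the gene, with each CCAAT, or ATTGG where it lies on the other strand, in capitals. Gm9 (chrX:37211042-37211291, minus strand) had the lowest ratios of any low-ratio gene with RNA left in both Nfya-KD libraries. Tspan31 (chr10:127070262-127070511, minus strand) and Pgp (chr17:24470176-24470425, plus strand) had many matches. Hmgn5 (chrX:109013381-109013630, minus strand) was the most abundant low-ratio gene. 2810417H13Rik (chr9:65890073-65890322, plus strand, Pclaf in RefSeq) carried a close pair on opposite strands, and Krt8 (chr15:102004343-102004592, minus strand) had none.
Gm9: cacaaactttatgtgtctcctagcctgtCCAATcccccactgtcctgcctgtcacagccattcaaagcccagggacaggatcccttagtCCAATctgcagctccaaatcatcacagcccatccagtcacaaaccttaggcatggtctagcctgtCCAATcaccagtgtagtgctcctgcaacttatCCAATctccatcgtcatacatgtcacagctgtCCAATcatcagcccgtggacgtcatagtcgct
Tspan31: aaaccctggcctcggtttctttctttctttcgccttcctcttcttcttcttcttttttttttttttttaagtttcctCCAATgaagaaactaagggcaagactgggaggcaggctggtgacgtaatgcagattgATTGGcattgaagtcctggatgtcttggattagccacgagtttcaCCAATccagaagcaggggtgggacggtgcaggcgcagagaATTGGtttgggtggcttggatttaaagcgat
Pgp: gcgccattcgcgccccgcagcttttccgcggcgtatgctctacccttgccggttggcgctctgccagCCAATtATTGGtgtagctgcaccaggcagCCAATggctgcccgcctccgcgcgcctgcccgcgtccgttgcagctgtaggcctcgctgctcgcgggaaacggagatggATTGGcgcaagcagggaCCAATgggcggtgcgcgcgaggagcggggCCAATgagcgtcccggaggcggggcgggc
Hmgn5: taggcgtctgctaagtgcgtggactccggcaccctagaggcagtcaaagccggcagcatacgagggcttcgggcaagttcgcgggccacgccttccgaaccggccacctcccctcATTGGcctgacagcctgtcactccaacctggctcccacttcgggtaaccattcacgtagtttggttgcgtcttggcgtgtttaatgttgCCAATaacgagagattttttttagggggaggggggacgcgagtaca
2810417H13Rik: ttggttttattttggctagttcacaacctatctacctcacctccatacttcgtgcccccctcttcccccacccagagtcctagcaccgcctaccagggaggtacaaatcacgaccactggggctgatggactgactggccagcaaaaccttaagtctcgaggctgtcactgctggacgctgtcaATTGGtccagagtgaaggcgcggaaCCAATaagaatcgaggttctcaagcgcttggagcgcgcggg
Krt8: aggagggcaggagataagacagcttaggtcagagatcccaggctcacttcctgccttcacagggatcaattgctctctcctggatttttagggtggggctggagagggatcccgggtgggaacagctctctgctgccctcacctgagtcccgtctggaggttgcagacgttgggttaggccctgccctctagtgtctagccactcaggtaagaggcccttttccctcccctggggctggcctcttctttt

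In Gm9 the 5 matches all lay on the strand of the gene, with first bases 222, 161, 96, 64 and 32 bases before the start. Tspan31 had 4 matches, on alternating strands, and Pgp had 6, the most in any of these windows. Of the 28 genes with a window, 24 had at least 1 CCAAT on either strand (85.7%). The same count gave 45.6% of the 5345 genes at 3 FPKM or more in both siControl libraries that had a window, and 41.1% of all 27025 genes with a window. At least 2 matches were found in 19 of 28 low-ratio genes (67.9%), beside 19.2% of the genes at 3 FPKM or more and 13.3% of all. At least 3 matches were found in 9 (32.1%), beside 7.41% and 3.88%. The genes without a match were 2010317E24Rik (Sapcd2 in RefSeq), 4930558C23Rik, Krt8 and Lysmd3. A match in these letters is a description of the window and not a site of binding, and DNA occupancy was not analysed here.

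Other properties of the windows were counted in the same way, and their part in the CCAAT share was not tested. Low-ratio genes had 1.04 windows per gene on average and the genes at 3 FPKM or more had 1.27. Median GC content was 57.8% in low-ratio genes and 60.3% in the others at that level. TATAAA, the core of the TATA box, was present on either strand in 14.3% of low-ratio genes and in 9.39% of the genes at 3 FPKM or more. GGGCGG, a core element read by the SP family of factors, was present in 53.6% and 68.8%. The longer motif CCAATCA, which contains CCAAT, was present in 9 of 28 low-ratio genes (32.1%) and in 14.7% of the genes at 3 FPKM or more. Without the genes on X the share with CCAAT was 18 of 22 (81.8%), a count added after the data were seen.

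The matches were also placed by their distance from the start. Low-ratio windows held 60 matches, of which 57 began before the start and 40 began within 150 bases before it, and 38 were on the strand of the gene. These matches were not counted in the other genes, so shares of windows are compared. In the stretch from 100 to 51 bases before the start 44.8% of the 29 low-ratio windows had a match, beside 16.9% of 6729 windows of genes that did not meet the ratio limits. From 50 bases to 1 base before the start the shares were 44.8% and 12.4%, and between 200 and 151 bases before it 37.9% and 8.40%. In the 50 bases from the start on they were 10.3% and 4.46%. The distance between neighbouring matches was 20 to 40 bases in 12 of 36 cases (33.3%), beside 30.2% in the other genes, so spacing in that range was of like frequency.

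**Figure D1:**
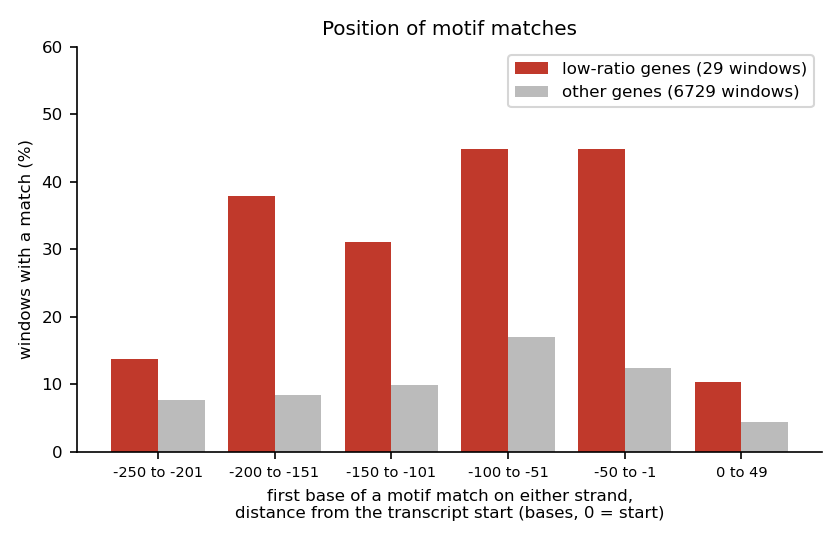
Share of promoter windows (%) with at least 1 CCAAT match on either strand, by the distance of its first base from the transcript start (bases), for 29 windows of low-ratio genes (red) and 6729 windows of genes at 3 FPKM or more that did not meet the ratio limits (grey). The red bars are highest, at 44.8%, in the bins nearest to the start on its upstream side, where the grey bars stand at 16.9% and 12.4%.

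The share of genes with CCAAT also differed by degree among genes that did not qualify. Genes were placed by the larger of their 2 ratios, so that a low value means low in both pairs. CCAAT was present in 24 of 34 genes (70.6%) between 0.5 and 0.6, in 54 of 65 (83.1%) between 0.6 and 0.7, in 60.8% of 158 genes between 0.7 and 0.8, in 55.6% of 360 between 0.8 and 0.9 and in 52.1% of 778 between 0.9 and 1. Above a ratio of 1 it was present in 42.2% of 2651 genes in the nearest class, in 40.4% of 925 in the next, which ended at 1.5, in 39.9% of 298 between 1.5 and 2, and in 39.0% of 41 above 2. The motif was therefore most frequent at the low end and near the share of all genes from a ratio of 1 upwards. Read the other way, among 2902 non-qualifying genes with no match the median ratio was 1.06 in pair 1 and 0.988 in pair 2, and 21.2% were lower in both pairs. With 1 match the medians were 1.03 and 0.963 and 28.6% were lower in both. With 2 matches they were 1.00 and 0.945 with 34.0%, and with at least 3 matches 0.977 and 0.910 with 43.4%. The medians were thus ordered by the number of matches in both library pairs.

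**Figure D2:**
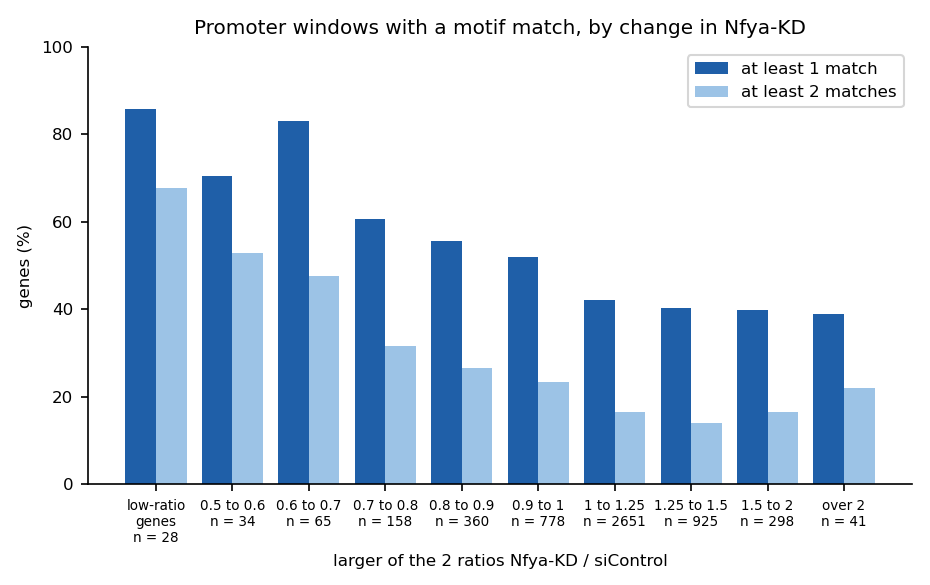
Share of genes (%) with at least 1 (dark) or at least 2 (light) CCAAT matches in the promoter window, for the 28 low-ratio genes with a window and for the other genes at 3 FPKM or more in siControl, grouped by the larger of the 2 ratios. The dark bars go from 85.7% in low-ratio genes to 39.0% in genes whose larger ratio was above 2.

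How often both pairs met the limit can be read against the whole table. Of 6602 genes at 3 FPKM or more in both siControl libraries, 73 (1.11%) had a ratio of at most 0.5 in pair 1 and 163 (2.47%) in pair 2. Both limits were met by 48 genes (0.727%), which were 65.8% of the pair 1 genes and 29.4% of the pair 2 genes. Leaving out 11 by symbol gave the 37. In the other direction, 12 of 6590 genes at 3 FPKM or more in both Nfya-KD libraries had a ratio of at least 2 in both pairs (0.182%). Across the 6602 genes the log2 ratios of the 2 pairs, which share no library, had a Pearson r of 0.47, given as a description because genes are not replicates. In 34 of the 37 genes both Nfya-KD values lay below both siControl values, which held for 573 of the 6602 genes (8.68%). The exceptions were Pgp, Gm1564 and Gm14458, in which the siControl libraries themselves differed by more than 2-fold. Limma on log2(FPKM + 1) over 10533 genes with group as the only term called 0 genes lower in Nfya-KD (0%) and 0 higher at an adjusted p of 0.05, with 92 lower and 47 higher at an unadjusted p of 0.05. With the replicate number as a block it called 9 lower (0.0854%) and 2 higher (0.019%), and since the low-ratio genes were chosen within the same numbers, nothing is read from these calls about them.

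**Figure D3:**
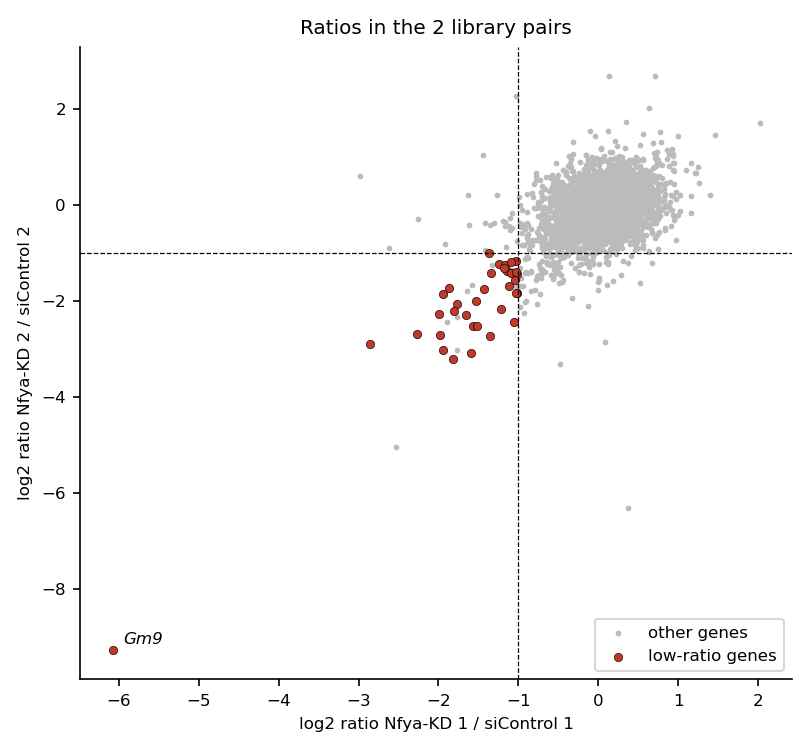
Log2 ratio of Nfya-KD to siControl FPKM in pair 2 (vertical) against pair 1 (horizontal) for 6597 genes at 3 FPKM or more in siControl, with low-ratio genes in red and the limit of 0.5 as dashed lines. The 35 low-ratio genes drawn lie in the lower left corner because the limits put them there, with Gm9 far below the rest, and 5 genes at 0 in an Nfya-KD library are not drawn.

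Over the 37 genes the median ratio was 0.373 in pair 1 and 0.250 in pair 2, beside medians of 1.04 and 0.971 for all genes at 3 FPKM or more. The ratio was the lower one in pair 2 for 31 of the 37, and for 63.4% of all genes at that level. The genes were of moderate abundance, with siControl means from 3.36 to 109 FPKM and a median of 10.0 FPKM, beside a median of 14.6 FPKM for all genes at that level. The siControl libraries differed by more than 2-fold in 12 of the 37, which was not counted over all genes. The higher value was in siControl 2 for 27 of the 37, beside 69.5% of all genes at that level. Genes nearest to the limit on the inside were Tspyl2, with a larger ratio of 0.497, Gm1564 with 0.493 and Tuba1a with 0.492, and those just outside it were Klrg2 with 0.506, Edf1 with 0.507, Gm1140 with 0.509, G3bp1 with 0.511 and Rab3a with 0.512.

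**Figure D4:**
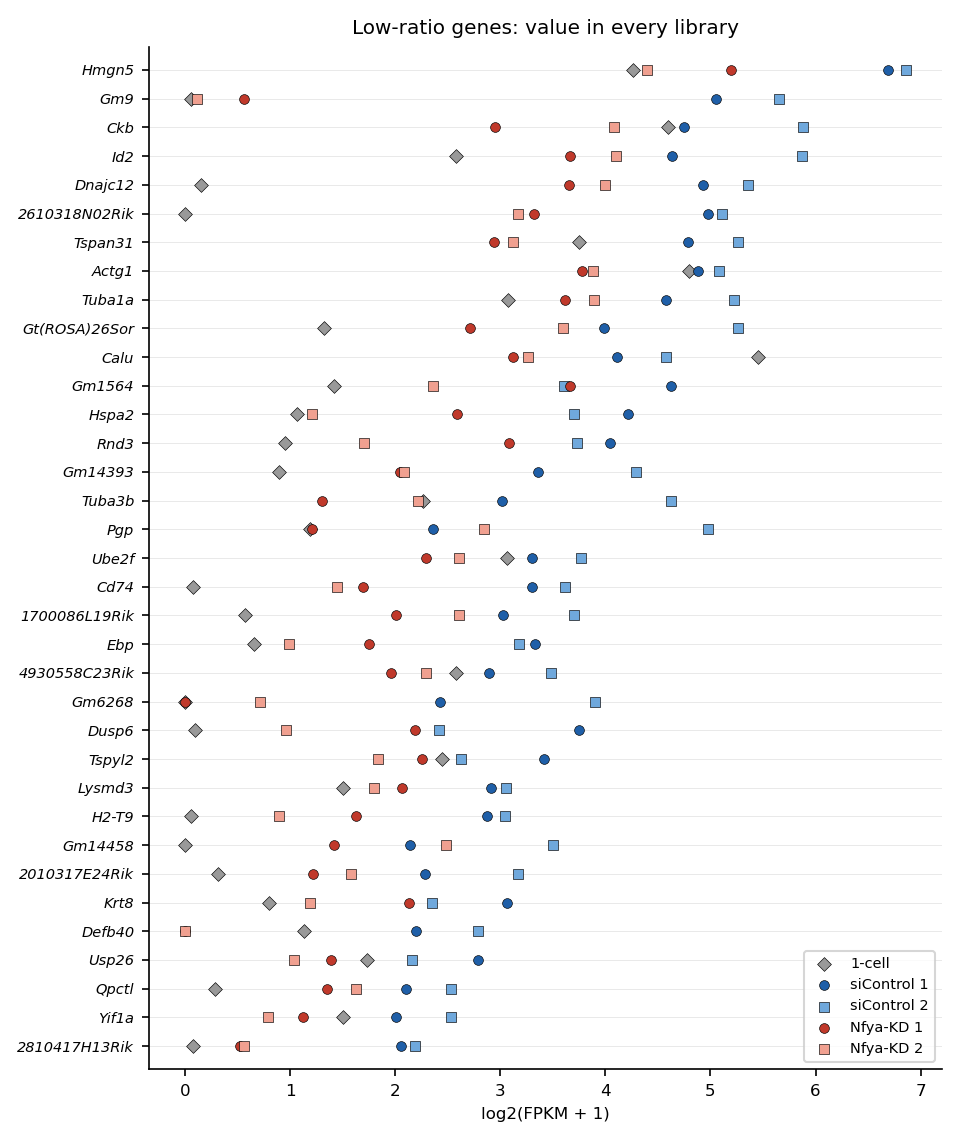
Log2(FPKM + 1) in each of the 5 RNA libraries for 35 of the 37 low-ratio genes, ordered by the siControl level. Blue symbols are the siControl libraries, red and pink symbols the Nfya-KD libraries (circles for number 1, squares for number 2) and grey diamonds the 1-cell library. Hmgn5 stands highest, at 102 and 115 FPKM in siControl, and the grey diamonds lie left of the red symbols in most rows and right of them in others such as Calu.

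The low-ratio gene with the largest difference among those detected in every library was Gm9, an X-linked protein-coding gene by RefSeq. The siControl libraries held 32.1 and 49.4 FPKM of it, with 0.476 and 0.0801 FPKM in Nfya-KD and 0.0404 FPKM in 1-cell embryos, so the Nfya-KD libraries were near the 1-cell value. The log2 difference on the log2(FPKM + 1) scale was -5.02 (SE 0.35, limma, n = 2 per group). Defb40, a beta-defensin gene, had 3.59 and 5.91 FPKM with siControl and was listed at 0 in both knockdown libraries. The noncoding gene Gm6268, also on X, had 4.39 and 13.9 FPKM with siControl, was listed at 0 in Nfya-KD 1 and stood at 0.645 FPKM in Nfya-KD 2. No fold is given for the last 2, since a listed 0 can be a failed estimate and no read counts were used.

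Genes of chromatin and of transcription included the most abundant one. Hmgn5, which encodes a nucleosome-binding protein that loosens chromatin, was at 102 and 115 FPKM in siControl against 35.7 and 20.0 FPKM in Nfya-KD, a log2 difference of -1.98 (SE 0.46, limma). Id2, an inhibitor of basic helix-loop-helix transcription factors, was at 23.9 and 57.4 FPKM against 11.7 and 16.1 FPKM, and the groups were separate although the siControl libraries lay 2.40-fold apart. 2810417H13Rik, known as the PCNA clamp associated factor of DNA replication, was near the minimum level at 3.15 and 3.56 FPKM, with 0.436 and 0.481 FPKM after knockdown and ratios of 0.138 and 0.135. Tspyl2, of the nucleosome assembly family, was at 9.71 and 5.18 against 3.77 and 2.58 FPKM. Relatives of Id2 and Hmgn5 did not meet the limits. Id1 had ratios of 0.843 and 0.955 and Id3 of 1.04 and 0.892, and Hmgn1, Hmgn2 and Hmgn3 had ratios from 0.614 to 1.07. The window of Id2 held 3 matches of CCAAT and that of Id3 held 0, while Hmgn1, with ratios of 0.733 and 0.775, held 2. Counts in relatives of other low-ratio genes did not all follow the ratios. Tuba1b held 0 with ratios of 0.532 and 0.458, and Tuba3a held 3 with ratios of 1.03 and 0.862. H2-T22, by contrast, held 3 with low ratios of 0.195 and 2.2e-05, but its siControl 2 value of 0.921 FPKM was below 3 FPKM. H2-T23 held 1 with ratios of 1.35 and 1.23. These relatives were chosen after the low-ratio genes were known.

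In signalling, Dusp6, a phosphatase that turns off the kinase ERK, had 12.5 and 4.34 FPKM with siControl, beside 3.57 and 0.943 FPKM after knockdown, at ratios of 0.286 and 0.217. Here the siControl libraries differed more from each other than Nfya-KD 1 did from siControl 2. Rnd3, an atypical small GTPase that opposes contraction of the actin cortex, was at 15.5 and 12.3 against 7.48 and 2.26 FPKM, with ratios of 0.482 and 0.185. Its relative Rnd1 had ratios of 0.719 and 1.10, and Dusp4 had ratios of 0.491 and 0.812 at lower levels of 2.54 and 2.26 FPKM in siControl.

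Cytoskeleton genes ranged from ratios near the limit, in Tuba1a, to much lower ones, in Tuba3b. Actg1, the cytoplasmic gamma actin, was at 28.5 and 32.8 FPKM in siControl against 12.7 and 13.7 FPKM in Nfya-KD, close values within each group. Tuba1a, an alpha tubulin, was at 22.9 and 36.3 against 11.3 and 13.8 FPKM, and Tuba3b, another, at 7.07 and 23.6 against 1.46 and 3.65 FPKM. Krt8, a keratin of early epithelium, was at 7.37 and 4.11 against 3.38 and 1.28 FPKM. Close relatives stood nearer to their controls, with Actb at ratios of 0.735 and 0.649, Tuba1b at 0.532 and 0.458, Tuba1c at 0.673 and 0.489, Tuba3a at 1.03 and 0.862, and Krt18, the usual partner of Krt8, at 0.706 and 0.679. Tubulin and actin genes have near-identical copies, so reads can be split between them and the single values are uncertain to that extent.

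Chaperones and the secretory route followed. Hspa2, an HSP70 family chaperone best known from sperm development, was at 17.6 and 12.0 FPKM against 5.00 and 1.31 FPKM, with ratios of 0.285 and 0.109, while Hspa1a had ratios of 0.792 and 0.645 and Hspa8 of 1.10 and 1.09. Dnajc12, a J-domain co-chaperone, was at 29.4 and 40.01 against 11.6 and 15.01 FPKM. Calu, a calcium-binding protein of the endoplasmic reticulum, was at 16.3 and 22.9 against 7.69 and 8.58 FPKM. Yif1a, a protein of transport between reticulum and Golgi, was at 3.02 and 4.78 against 1.18 and 0.726 FPKM, while Qpctl, a Golgi glutaminyl cyclase, at 3.30 and 4.77 against 1.55 and 2.09 FPKM. The last 2 were close to the minimum level in siControl. Of 14 listed endoplasmic reticulum stress genes at 3 FPKM or more, 7 were lower in both pairs and 2 higher, with median ratios of 0.915 and 0.844, beside 26.8% lower and 29.6% higher in both pairs over all 6602 genes. Calreticulin (Calr) and Hsp90b1 were outside that list by the choice of genes, and were left out of the low-ratio genes by symbol.

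Among enzymes, Ckb, the brain-type creatine kinase that buffers ATP, was at 25.9 and 58.0 FPKM in siControl against 6.71 and 16.0 FPKM in Nfya-KD. Its ratios of 0.259 and 0.275 were alike although the siControl libraries were 2.24-fold apart. Pgp, a phosphatase that clears phosphoglycolate, was at 4.13 and 30.4 against 1.32 and 6.17 FPKM, so its groups overlapped and only the ratios within a number were low. Ebp, a sterol isomerase of cholesterol synthesis, was at 9.08 and 8.03 against 2.37 and 0.988 FPKM. Of 10 listed sterol synthesis genes at 3 FPKM or more, 5 were lower in both pairs and 2 higher, and the median ratios were 0.933 and 0.935. Of the same list, Sqle was at 22.6 and 29.4 against 17.9 and 18.02 FPKM. Fdps was at 28.8 and 33.9 against 27.5 and 31.6 FPKM. Usp26, an X-linked deubiquitinase, was at 5.92 and 3.47 against 1.63 and 1.05 FPKM, and Ube2f, which conjugates the ubiquitin-like protein NEDD8, at 8.86 and 12.6 against 3.898 and 5.10 FPKM.

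Surface proteins included Tspan31, a tetraspanin, at 26.5 and 37.3 FPKM in siControl against 6.68 and 7.68 FPKM in Nfya-KD, a log2 difference of -1.99 (SE 0.33, limma). Of 7 listed tetraspanins at 3 FPKM or more Tspan31 alone met the limits, with 4 lower in both pairs and 1 higher. The much more abundant Cd63 was at 133 and 374 against 108 and 330 FPKM, and Cd9 had ratios of 1.11 and 0.972. Cd74, the invariant chain that escorts MHC class II molecules, was at 8.85 and 11.2 against 2.25 and 1.73 FPKM. Of 6 genes of MHC class II and antigen presentation at 3 FPKM or more, Cd74 alone met the limits. In this list 3 were lower in both pairs and 1 higher, with median ratios of 0.938 and 0.754. The higher one was H2-Aa, a class II chain, at 3.18 and 5.06 against 3.68 and 6.11 FPKM. H2-D1 had ratios of 0.622 and 0.571, and B2m of 0.976 and 0.576. H2-T9, a non-classical class I gene, was at 6.33 and 7.27 against 2.10 and 0.855 FPKM. Its near copy H2-T22 was at 5.67 and 0.921 FPKM in siControl against 1.11 and 2.0e-05 FPKM in Nfya-KD. Reads may have been split between the 2, which was not tested. Of 11 leukocyte and macrophage markers 4 reached 1 FPKM in any 2-cell library. Their sum was 14.8 and 17.1 FPKM with siControl, beside 17.2 and 12.9 FPKM after knockdown, and the part of such cells in the Cd74 value was not tested.

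Less described genes made up the rest. 2610318N02Rik was at 30.5 and 33.6 FPKM against 8.97 and 8.00 FPKM, with close values in each group and a log2 difference of -1.80 (SE 0.30, limma). Gm14393 was at 9.29 and 18.6 against 3.14 and 3.25 FPKM. Gm1564, which RefSeq calls Meioc, a gene of meiotic germ cells, was at 23.7 and 11.2 against 11.7 and 4.13 FPKM. Gm14458, which RefSeq calls Fthl17d, a ferritin heavy chain-like gene on X, was at 3.42 and 10.3 against 1.68 and 4.61 FPKM. These groups overlapped in both of the latter. The noncoding Gt(ROSA)26Sor, the transcript of the Rosa26 locus, was at 14.9 and 37.3 against 5.53 and 11.1 FPKM. 1700086L19Rik, Lysmd3, 2010317E24Rik and 4930558C23Rik had ratios from 0.250 to 0.486.

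The 1-cell library, which had no part in the choice, held little RNA of many of these genes. At the 1-cell stage 17 of the 37 (45.9%) were below 1 FPKM, as were 10.5% of all genes at 3 FPKM or more in siControl. On the (FPKM + 1) scale the siControl mean was at least 5-fold higher than the 1-cell value in 20 of 37 (54.1%), beside 13.9% of the 6602 genes. It was at least 5-fold lower in 0 of 37, beside 7.13%. With 1 library at that stage no test can be made, and the siControl values enter both comparisons. Those furthest above the 1-cell value were Gm9, 2610318N02Rik (at 0 FPKM in 1-cell embryos), Dnajc12 (0.109 FPKM), Gt(ROSA)26Sor (1.51 FPKM), Cd74 (0.0581 FPKM) and Gm6268 (0 FPKM). In 19 of the 20 both Nfya-KD values stayed above the 1-cell value, the exception being Gm6268. The same count was not made for all genes with that 5-fold difference, so nothing is read from it about the low-ratio genes.

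A smaller group was already abundant at the 1-cell stage. Calu was at 42.7 FPKM in 1-cell embryos, above its siControl mean of 19.6 FPKM. Actg1 was at 26.7 FPKM, near its siControl mean of 30.6 FPKM, and Ckb at 23.1 FPKM, below its siControl mean of 42.0 FPKM. The 1-cell value was above the siControl mean in 2 of the 37 genes (5.41%), beside 56.8% of the 6602 genes. Both Nfya-KD values lay below the 1-cell value in 12 of the 37 genes, among them Tspan31, Tuba3b, Ube2f, Usp26, Yif1a and Tspyl2. That was not counted over all genes, so nothing is read from it about the low-ratio genes. Not all of the 12 were abundant at the 1-cell stage, where Tspan31 was at 12.4 FPKM but Usp26 at 2.32 and Yif1a at 1.83 FPKM. CCAAT was present in 13 of the 14 genes with a window that were at least 5-fold higher in siControl than at the 1-cell stage and in 11 of the other 14 (78.6%). Among 690 genes of the same 5-fold difference that did not meet the ratio limits it was present in 44.1%, close to the share of all genes at that level.

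**Figure D5:**
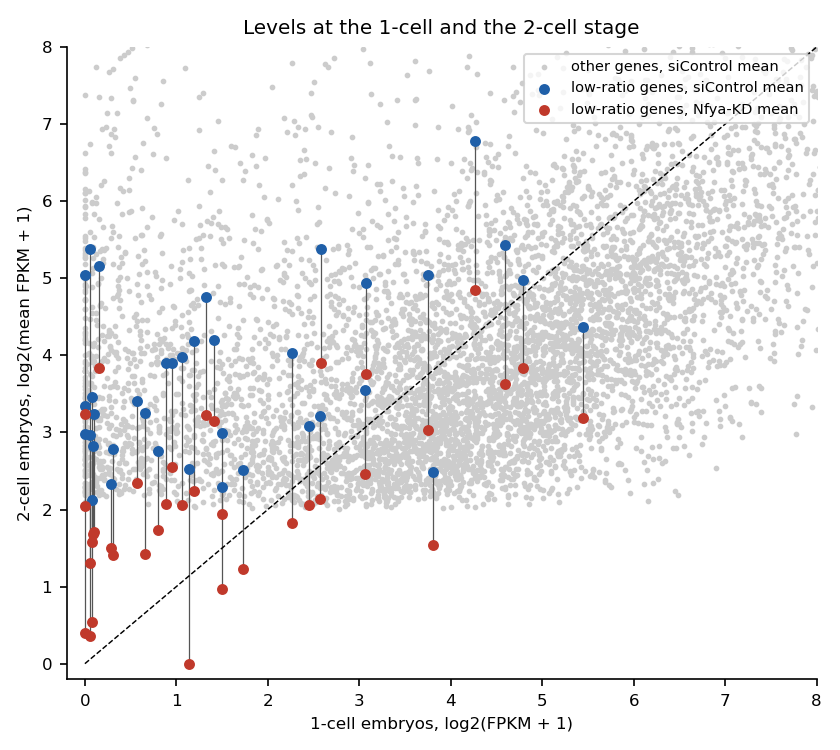
Level in 2-cell embryos, log2(mean FPKM + 1), against level in 1-cell embryos, log2(FPKM + 1), for the 37 low-ratio genes in siControl (blue) and Nfya-KD (red), joined by a line, and for other genes in siControl (grey), with equal levels on the dashed line. Most blue points lie above the dashed line and to the left. The red points, each at the mean of the 2 Nfya-KD libraries, lie below it for 12 genes, and 333 genes lie beyond the axes.

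The low-ratio genes were spread over the genome with one chromosome ahead. Of the 36 that matched a RefSeq gene, 7 were on X (19.4%), beside 3.82% of the genes at 3 FPKM or more, and 5 on chromosome 12 (13.9%), beside 4.04%. The X genes were Gm9, Gm6268, Gm14458, Ebp, Hmgn5, Usp26 and Tspyl2. Over all 251 X genes at that level the median ratios were 1.07 and 0.963, close to the 1.04 and 0.971 of all genes, so X as a whole did not stand lower. The mix of male and female embryos in each pool was not labelled. Eif2s3y, a gene of the Y chromosome, was at 4.21 and 12.9 FPKM in siControl against 4.60 and 9.49 FPKM in Nfya-KD, and Xist, expressed from X in females, at 0.784 and 0.487 against 0.862 and 0.385 FPKM. Other Y genes, at lower levels in siControl, differed from one another. Uty had ratios of 1.09 and 0.913, Ddx3y of 0.630 and 0.409, and Kdm5d of 1.58 and 0.480. No low-ratio genes were direct neighbours in the GRCm38.p6 order, and 1700086L19Rik and Hspa2, on chromosome 12, had 16 other genes of the table between them.

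Other gene lists are read beside all 6602 genes, of which 26.8% were lower and 29.6% higher in both pairs, with median ratios of 1.04 and 0.971. Of 23 cell cycle genes known to depend on NF-Y in other cells 0 met the limits (the median ratios were 0.975 and 0.878), with 12 lower in both pairs and 5 higher. Of 26 DNA replication genes 2810417H13Rik alone did so, with 9 lower in both pairs and 9 higher and median ratios of 1.02 and 0.904, while Pcna, its binding partner, was at 61.7 and 140 against 62.1 and 147 FPKM. Of 13 epithelial and trophectoderm genes Krt8 alone did so, with 7 lower in both pairs and 0 higher. Of 23 genes typical of the 2-cell stage 0 met the limits, with 8 lower in both pairs and 0 higher, and the median ratios were 1.06 in pair 1 and 0.738 in pair 2. Of 17 regulators of genome activation 0 met them, with 4 lower in both pairs and 7 higher and medians of 1.11 and 0.939. Of 21 maternal oocyte genes 0 met them, with 6 lower and 8 higher and medians of 1.02 and 1.05. Of 2 defensin genes at that level Defb40 did, while Defb25 had ratios of 0.368 and 2.06. The lists were chosen with earlier results of these data known.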

How the data were processed

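RNA was sequenced from pools of whole embryos. The authors deposited FPKM per gene, by the name of the table. Cufflinks 2.2.1, TopHat2 2.0.6, Bowtie 0.12.9 and the mm9 build appear, without roles, per the submitters' processing notes. The annotation and the strand setting were not given in the sources used here. Groups and numbers came from the titles. The genes, lists and tests were chosen with earlier results of these data known. The rule for named genes took extremes of ratio, level and 1-cell share, and 35 of the 37 genes are named, with the other 2 counted but not reported here by name. Role groups and relatives were set after the values were seen.

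Ratios were computed in Python 3.11.15 (pandas 2.3.3) on FPKM as deposited. Limma 3.58.1 in R 4.3.3 (eBayes with trend) was fitted to log2(FPKM + 1) over genes that reached 1 FPKM in 2 or more of the 4 2-cell libraries, with Benjamini-Hochberg adjustment, and was tested on simulated data. This scale understates differences of low genes. Symbols were matched to RefSeq (GRCm38.p6) directly or, for 4 low-ratio genes, by a synonym, and 1 stayed unmatched. Lists of open chromatin sites are on mm9, for which no gene coordinates were used here, so no site is tied to a gene.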

Additional observations from a re-analysis of the deposited data

How the results depend on the processing

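The number of low-ratio genes depends on the limits. It was 76 with a siControl minimum of 1 FPKM, 24 with 5 FPKM, 14 with 10 FPKM, 21 with a ratio limit of 0.4, 66 with 0.6 and 24 with ratios of (FPKM + 1). Without the pairing by number, on ratios of group means, it was 75, which held all 37. With one number left out it was 103 to 192. Scaling by library sums gave 43 genes and scaling by median ratios 40, each holding 36 of the 37. Limma called 0 genes lower with group alone, 1 with a pseudocount of 0.1, 3 after division by library sums, 5 to 25 with a library left out, and 9 with the replicate number as a block. With a single library in a group that library is assumed to vary like the others. Deviations of same-numbered libraries from their group means had r = 0.74 over 10533 genes, and the labels do not say what a shared number marks. The ratios that chose the genes use that number, while limma with group alone does not. The share of low-ratio genes above their 1-cell value was 75.7% for a 2-fold difference, beside 27.3% of all genes at 3 FPKM or more. It was 16.2% for a 10-fold difference, for which the share of all genes was not counted. The share with CCAAT was 64.3% on the strand of the gene alone and 32.1% for CCAATCA, beside 27.3% and 14.7% of the genes at 3 FPKM or more. The log2 difference of Nfyc, 0.29, was -0.037 without siControl 1 and at most 0.62, without siControl 2. Over 362 alternative values the low-ratio genes had log2 differences from -6.95 to -0.19. Read counts were not used, so error from depth is not known for genes near 3 FPKM.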
